A study of Arabidopsis thaliana with 12 samples.

Results

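The 16 genes described here had RNA in the apical and the basal cell of the 1-cell Arabidopsis embryo and almost none in the embryo proper or the suspensor of the 32-cell embryo. They were chosen from the 32399 genes in the files by the mean FPKM of the 3 libraries of a group. This mean had to be below 1 in the embryo proper (32E) and in the suspensor (32S), and at least 10 in the apical cell (AC) and in the basal cell (BC). FPKM is a read count corrected for transcript length and for the size of the library, so it gives a share of the RNA of a library and not an amount per cell. The levels in the 4 groups and the change between the stages therefore chose the genes, and they are given below as a description, with no test.

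The libraries came from embryos of the accession Col (Columbia-0 in the study's methods), grown in long days in a greenhouse, and no mutant or treatment was part of the design. The 32-cell stage was sampled as 32E and 32S and the earlier stage as AC and BC, with 3 independent biological replicates of each. The earlier embryos hold 1 apical and 1 basal cell, so the labels call the stage 2-celled where the study says 1-cell embryo. Seeds were softened in a mix of wall-degrading enzymes, and the embryos were dissected by hand. The apical and basal parts were then separated with a laser microdissection (LMD) system and collected by micromanipulation. Each library pooled cells of several embryos before the RNA was amplified.

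In Arabidopsis the zygote elongates and divides unequally. The small apical cell gives rise to most of the embryo, and the large basal cell to the suspensor, a file of cells that anchors and feeds the embryo. RNA in these first cells can be carried over from the egg cell and the zygote or be made anew. Its level later depends on how much is still transcribed, on how fast it decays and on dilution as cells divide.

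The library sums of FPKM lay between 833418 and 955228, and 13034 to 15322 genes per library were above 1 FPKM. WOX8, a homeobox gene of the basal lineage, had 446, 388 and 452 FPKM in 32S and 359, 325 and 366 in BC, against 0 in each 32E library and 7.02 to 9.35 in AC. DRN, a transcription factor gene of the apical lineage, had 55.6 to 100.5 FPKM in 32E and 22.9 to 60.3 in AC, against 0.86 to 0.98 in 32S and 8.61 to 10.3 in BC. Both were highest in the lineage that they mark. WOX9 and PIN7, known from the basal lineage, were also higher in that lineage at both stages. WOX9 had 244 to 361 FPKM in 32S and 608 to 658 in BC, against 75.9 to 105 in 32E and 0.04 to 1.43 in AC. PIN7 had 85.5 to 138 in 32S and 11.85 to 16.0 in BC, against 0.81 to 4.70 in 32E and 0 in AC. WOX2, known from the apical lineage, split only at the 32-cell stage, with 117 to 126 in 32E against 0 to 1.98 in 32S. At the earlier stage WOX2 had 104 to 126 FPKM in AC and 147 to 165 in BC. Of the marker genes of other cells, FPKM means above 1 were seen for 1 of 5 synergid genes in each group and for 0 to 2 of 10 pollen and sperm genes. For the 9 seed coat genes the count was 1 or 2, and for the 11 endosperm genes 2 or 3. The summed FPKM of the endosperm list was 6.9 to 18.9 in 32E, 483 to 543 in 32S, 41.4 to 73.7 in AC and 290 to 318 in BC, most of it from the sucrose transporter gene SUC5. The endosperm regulators MEA and ZOU, the synergid regulator MYB98 and the seed coat regulator TT8 were listed at 0 in the means of all 4 groups. Other genes of the lists were not: the endosperm gene AGL80 had means of 15.1 in BC and 15.2 in 32S. Of the seed coat genes, STK had 17.9 in 32E, and MUM4 had 22.2 in 32E and 26.1 in BC. None of the 16 genes belongs to any of these lists, and the part of other cells in their levels was not tested.

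Of the 8310 genes with means of at least 10 FPKM in AC and in BC, 6362 also reached 10 in 32E and in 32S. A mean below 1 was seen for 65 of the 8310 genes in 32E and for 224 in 32S, and the 16 genes are those below 1 in both. They make up 0.193% of the 8310. The opposite rule, at least 10 in 32E and 32S and below 1 in AC and BC, found 49 genes. In samples that pool cells, fewer cells with an RNA and less of it in each cell cannot be told apart.

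In 32S, 38 of the 48 values of the 16 genes were listed at 0 and none was above 1. In 32E, 22 of the 48 values were at 0 and 4 were above 1. All 3 libraries were at 0 for 11 genes in 32S and for 2 genes in 32E, AT4G25930 and AT3G58320. AT4G25930 was the only gene at 0 in all 6 libraries of the 32-cell stage. Residual signal was thus seen for more of the genes in the embryo proper than in the suspensor. The same direction held over all genes, with 13285 to 14805 at 0 in the 32E libraries and 15079 to 15883 in the 32S libraries. In 32E replicate 2, 13 of the 16 genes were above 0, against 8 and 5 in the other 32E libraries, and this library also had the fewest genes at 0 of all 12 libraries. For 4 genes, AT2G25450, AT4G36820, FLA12 and AT5G13600, it was the only library of the 32-cell stage with a value above 0. The files hold no read counts. The study lists the reads of each library, but reads per gene were not used here, so no limit is given for a value of 0.

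Summed over the 16 genes, FPKM was 2.89 to 9.29 in the 32E libraries and 1.1 to 2.42 in the 32S libraries, against 404.75 to 524.05 in AC and 357 to 374 in BC. For each of the 16 genes, the lowest of the 6 AC and BC libraries was above the highest of the 6 libraries of the 32-cell stage. The limits on the means make such a gap likely, so it describes the choice of genes. The closest case was AT4G36820, with 0.83 in 32E replicate 2 and 2.84 in AC replicate 1. The limits were met in each of the 12 libraries by 6 genes, AT4G25930, AT4G39590, AT5G52940, FOA1, AT2G41445 and AT4G16460. The mean over the 6 AC and BC libraries lay between 12.7 and 55.8 FPKM, with a median of 23.9, against a median of 43.4 for the 8310 genes. These were moderately expressed genes of the 1-cell embryo.

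**Figure D1:**
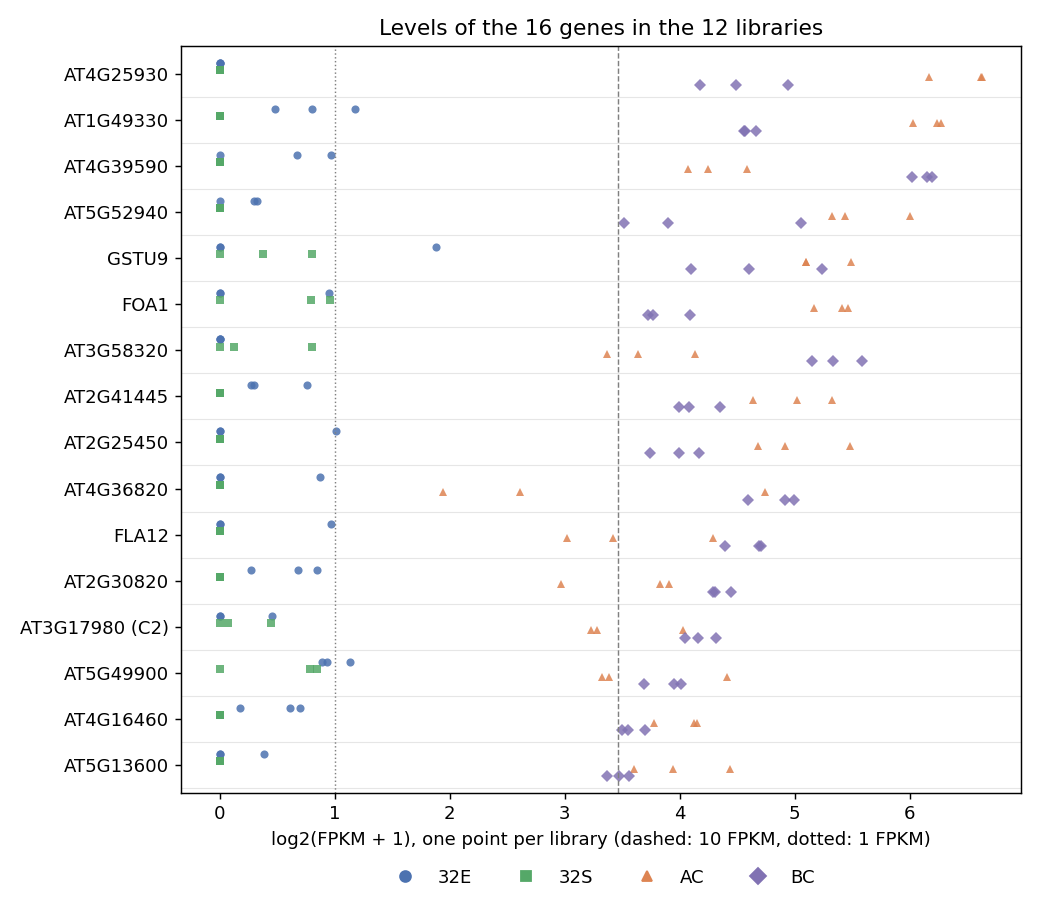
FPKM of the 16 genes in the 12 libraries, on a log2(FPKM + 1) axis, with a point for each library and symbols for 32E, 32S, AC and BC. The 32E and 32S points lie at or near 0, with the highest at 2.69 FPKM for GSTU9, and the AC and BC points lie around and above the dashed line of 10 FPKM, down to 2.84 for AT4G36820.

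The rule sets a floor of 10 for AC and for BC but does not say which of them is higher, so this comparison was tested, with limma on log2(FPKM + 1) over 17060 genes. Calls needed an adjusted p (Benjamini-Hochberg, all genes) under 0.01 together with a change of 1 or more on the log2 scale. By this test 6 of the 16 genes were called, 4 of them higher in AC and 2 lower. Of all genes tested 37.3% were called, 19.0% higher in AC and 18.4% lower. Among the 8310 genes with the same floor 21.0% were called, 9.23% higher in AC and 11.8% lower. The median size of the log2 fold change was 1.04 for the 16 genes, 0.79 for all genes tested and 0.53 for the 8310 genes. The AC and BC libraries did not overlap for 13 of the 16 genes, 8 with AC above BC and 5 with BC above AC, against 66.5% of all genes tested and 67.7% of the 8310. The share of the 16 genes that was called, 37.5%, was thus close to that of all genes. It was above that of the 8310 genes with the same floor, a difference that was not tested. Without AC replicate 2 the count was 10 of 16, and with a pseudocount of 0.1 it was 2 of 16.

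A list of 11 heat, touch and wound genes, given here because embryos were handled before lysis, also differed between the cells. Of the 10 tested, 6 were higher in AC and none was lower, where 19.0% and 18.4% of all genes tested were, and the summed FPKM of the list was 3032 to 3107 in AC and 634 to 1002 in BC. In 32S against BC, 8 of these 10 genes were higher, where 25.3% of all genes tested were, and in 32E against AC none of the 10 was called, where 27.4% were. The part of handling in the levels of the 16 genes was not tested.

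**Figure D2:**
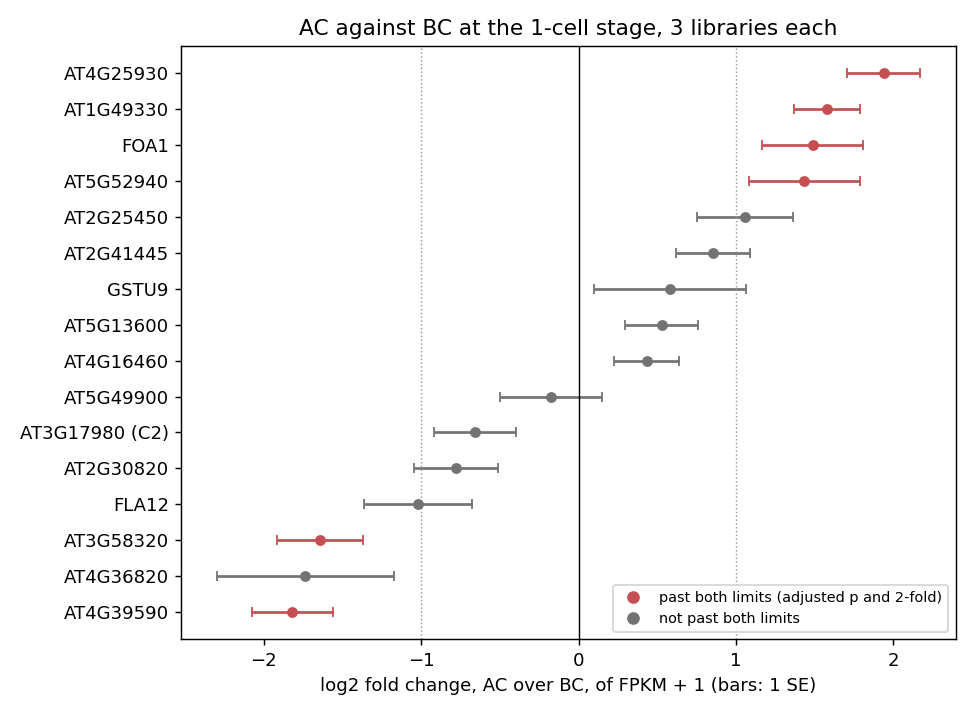
Log2 fold change of AC over BC for the 16 genes, from limma on log2(FPKM + 1), with bars of 1 SE and 3 libraries per cell type. Red points pass both limits, 4 to the right with values of 1.43 to 1.94 and 2 to the left at -1.64 and -1.82.

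A pair of the 16 genes encode proteins of the DUF295 family, a plant family defined by a domain of unknown function. AT4G25930 (chr4:13168127-13169393, plus strand, TAIR10.1, 3 exons) had the highest mean of the 16 genes. It was at 0 in the 6 libraries of 32E and 32S, and had 70.98, 98.07 and 97.48 FPKM in AC, against 17.04, 21.45 and 29.65 in BC. Every AC library was above every BC library, and the log2 fold change was 1.94 (SE 0.23, adjusted p = 2.28e-05, limma). AT5G52940 (chr5:21472103-21473602, plus strand, 1 exon) had 0.25, 0.23 and 0 FPKM in 32E and 0 throughout in 32S. It had 42.31, 39.06 and 63.19 in AC, against 10.40, 32.17 and 13.92 in BC. The cell types again did not overlap, with BC replicate 2 nearest to AC, and the log2 fold change was 1.43 (SE 0.35, adjusted p = 0.00409). This call was lost without AC replicate 3 (adjusted p = 0.0189), without BC replicate 1 (0.0207) or without BC replicate 3 (0.0182).

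Both DUF295 genes lie beside another DUF295 gene on the same strand, and these neighbours had a like pattern without meeting the rule. AT4G25920, which ends 1254 bases before AT4G25930, was at 0 in the 32-cell libraries except for 1.18 FPKM in 32E replicate 2. It had 42.99, 33.03 and 63.60 in AC, against 0, 17.41 and 0 in BC. Its BC mean of 5.80 kept it out. AT5G52930, which ends 241 bases before AT5G52940, was at 0 there except for 1.12 FPKM in 32E replicate 2. It had 21.37, 51.59 and 29.58 in AC, against 10.20, 7.83 and 7.86 in BC, a mean of 8.63. The log2 fold changes of AC over BC were 4.12 (SE 0.89, adjusted p = 0.00185) for AT4G25920 and 1.79 (SE 0.35, adjusted p = 0.000996) for AT5G52930, so all 4 genes of the tandem pairs were higher in AC. Both neighbours were looked at after the values of the 16 genes were known.

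The coding sequences of AT5G52940 and AT5G52930 were 83.5% identical over 97.3% of AT5G52940, and the proteins 73.3%. For AT4G25930 and AT4G25920 the proteins were 41.8% identical. Reads can be split wrongly between copies this close, and the files do not show how far this went within the first pair. In the same family, AT5G55880 and AT5G55890 had identical values in all 12 libraries. Another relative had a different pattern. AT5G55270, with a coding sequence 78.1% identical to AT5G52940, had 80.1, 13.4 and 62.3 FPKM in 32S and 100.1, 84.4 and 98.9 in BC, against 0.40, 1.38 and 0 in 32E and 1.01, 0 and 0 in AC. Its 32S and BC libraries were all far above its 32E and AC libraries.

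Of 69 DUF295 genes in the files, 44 had means below 1 in all 4 groups and 14 reached 10 in AC or BC. Means of at least 10 in AC or BC and below 1 in 32E and in 32S were found for 4 of the 69, the genes of the tandem pairs. The same limits were met by 144 of 26712 protein-coding genes. The family was looked at because 2 of the 4 are among the 16 genes, so these counts are a description only. A further gene, AT5G25290, had 0 FPKM in 32E and 2.22, 0.32 and 0.89 in 32S, against 22.52, 19.38 and 24.51 in AC and 15.64, 12.57 and 18.26 in BC, and missed the limit of 1 by its 32S mean of 1.14. AT1G27580 had a mean of 0.07 in 32E and 6.43 in 32S, against 34.2 in AC and 40.2 in BC. Another member, AT5G55440, had 28.1 ± 13.1 FPKM (SD, n = 3) in 32E and 0 in every other library. The expressed genes of the family thus differed in the groups where they were highest.

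**Figure D3:**
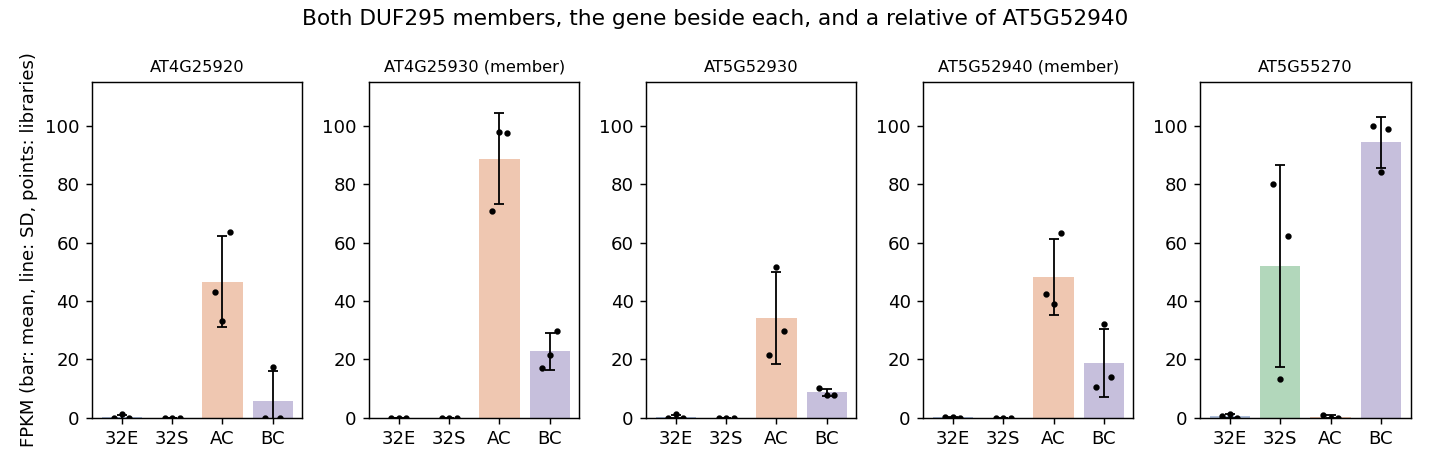
FPKM of 5 DUF295 genes in 32E, 32S, AC and BC, with bars for the mean of 3 libraries, lines for the SD and points for the libraries. AT4G25930 and AT5G52940 and the gene beside each have their highest bars in AC (88.8, 48.2, 46.5 and 34.2) and bars at or near 0 in 32E and 32S, whereas AT5G55270 is high in BC (94.5) and 32S (51.9).

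Among the 16 genes, 2 encode proteins with a link to ubiquitin by their annotation. FOA1 (AT3G17320, chr3:5915427-5916656, minus strand, 1 exon) encodes an F-box protein, the subunit that selects the target in a type of ubiquitin ligase. It had 0.93, 0 and 0 FPKM in 32E and 0.94, 0 and 0.73 in 32S. In AC it had 35.03, 43.04 and 41.63, against 12.23, 12.60 and 16.05 in BC. AC was higher than BC by 1.49 on the log2 scale (SE 0.32, adjusted p = 0.00177), with no overlap between the libraries. AT3G58320 (chr3:21585567-21586328, minus strand, 2 exons) is annotated as related to ubiquitin-specific proteases of the C19 family, enzymes that take ubiquitin off proteins. Its closest relative by protein, AT3G58270 with 52.9% identity, is annotated with a TRAF-like domain and not as such a protease, so this link rests on the product name. AT3G58320 was at 0 in 32E and had 0, 0.74 and 0.09 FPKM in 32S. The AC libraries had 11.46, 9.29 and 16.57, against 39.28, 34.46 and 47.00 in BC. Here BC was the higher cell type, with a log2 fold change of AC over BC of -1.64 (SE 0.27, adjusted p = 0.000281). Of 629 F-box genes in the files, 68 reached 10 in AC and in BC. Only FOA1 of these 68 was below 1 in both 32-cell groups, which restates the rule. With at least 10 in AC or BC instead, 10 of the 629 were below 1 in both 32-cell groups.

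AT4G39590 (chr4:18387331-18388759, minus strand, 1 exon) encodes a protein with kelch repeats, which fold into a propeller-shaped binding surface. It had 0.96, 0.59 and 0 FPKM in 32E and 0 in 32S. Its AC values were 17.93, 15.83 and 23.04, against 72.34, 63.65 and 70.10 in BC. The BC libraries lay far above the AC libraries, and the log2 fold change was -1.82 (SE 0.26, adjusted p = 8.55e-05), the largest of the 16 genes toward BC. Its neighbours on both sides are kelch genes with other patterns. AT4G39580 was below 1 in all 4 groups, and AT4G39600 had a mean of 6.47 in 32E and at most 0.21 elsewhere. The kelch gene AT4G39570, next but 1, had means of 34.3 in 32E and 19.5 in 32S, against 8.71 in AC and 4.03 in BC.

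A pair of the genes have product names that point to the cell wall and cell surface. AT1G49330 (chr1:18249866-18251038, plus strand, 1 exon) is annotated in the hydroxyproline-rich glycoprotein family, a broad class of structural wall proteins. Its closest relative by protein, AT2G16190 with 36.2% identity, is annotated as uncharacterized, so this link rests on the product name. AT1G49330 had 1.26, 0.40 and 0.74 FPKM in 32E and 0 in 32S. AC had 64.25, 74.38 and 76.34, against 24.29, 22.63 and 22.77 in BC. Both cell types were tight, and AC was higher by 1.58 on the log2 scale (SE 0.21, adjusted p = 4.97e-05). FLA12 (AT5G60490, chr5:24325457-24326827, minus strand, 1 exon) encodes a fasciclin-like arabinogalactan protein, and in stems it is known as a gene of secondary walls. It had 0.96 FPKM in 32E replicate 2 and 0 in the other libraries of 32E and 32S. In AC it had 7.13, 18.54 and 9.71, against 25.12, 20.02 and 24.83 in BC. All BC libraries were above all AC libraries, but the difference was not called (log2 fold change -1.02, SE 0.34, adjusted p = 0.0230). Without AC replicate 2 it was called, at -1.38 (adjusted p = 0.00289), and the gene then no longer met the rule.

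Genes for enzymes of metabolism included GSTU9, AT2G25450 and AT5G49900. GSTU9 (AT5G62480, chr5:25088527-25089626, minus strand, 2 exons) encodes a glutathione S-transferase of the plant tau class, enzymes that join glutathione to reactive compounds. It had 0, 2.69 and 0 FPKM in 32E and 0.30, 0 and 0.75 in 32S. The AC libraries had 33.15, 43.99 and 33.24, against 16.17, 36.70 and 23.35 in BC. The AC and BC libraries overlapped, and the log2 fold change of 0.58 was not called (SE 0.48, adjusted p = 0.330). AT2G25450 (chr2:10829854-10831655, minus strand, 3 exons) encodes an oxygenase of the class that uses iron and 2-oxoglutarate. It had 1.02 FPKM in 32E replicate 2 and 0 in the other 32-cell libraries, and 29.14, 24.69 and 43.65 in AC, against 14.88, 17.01 and 12.38 in BC. AC lay above BC without overlap, with a log2 fold change of 1.06 just outside the call (SE 0.31, adjusted p = 0.0107). AT5G49900 (chr5:20296518-20302575, minus strand, 21 exons) encodes a beta-glucosidase of the GBA2 type, which in mammals removes glucose from a membrane lipid. It had 0.91, 0.85 and 1.19 FPKM in 32E and 0.72, 0 and 0.80 in 32S. Its AC values were 9.44, 20.29 and 9, against 14.43, 15.16 and 11.88 in BC. The AC and BC libraries overlapped and the gene was not called (log2 fold change -0.18, SE 0.32, adjusted p = 0.685).

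Calcium was the link between 2 further genes by annotation. AT4G36820 (chr4:17346805-17348265, plus strand, 2 exons) encodes a calcium uniporter, a family whose members carry calcium into mitochondria. It had 0.83 FPKM in 32E replicate 2 and 0 in the other 32-cell libraries, and 2.84, 25.74 and 5.11 in AC, against 29.24, 23.18 and 30.83 in BC. AC replicate 2 alone reached the BC level, and the log2 fold change was -1.74 with a wide error (SE 0.56, adjusted p = 0.0188). Without that library it was -2.56 (adjusted p = 5.59e-05) and the gene fell out of the rule, since the other AC libraries were below 10. AT3G17980 (symbol C2, chr3:6152062-6153814, plus strand, 4 exons) encodes a small protein of the C2 domain type, which binds membrane lipids in the presence of calcium. It had 0, 0.37 and 0 FPKM in 32E and 0, 0.36 and 0.05 in 32S. AC had 8.72, 8.37 and 15.32, against 18.88, 15.47 and 16.86 in BC. The AC and BC libraries did not overlap, but the log2 fold change of -0.66 was under the limit (SE 0.26, adjusted p = 0.0464). It overlaps the end of TOC64-III on the same strand by 21 bases, a gene with means of 28.0 in 32E and 3.87 in 32S, against 21.8 in AC and 36.1 in BC.

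AT2G41445 (chr2:17275470-17277607, plus strand, 9 exons) is annotated as a MADS-box gene, a family of transcription factors. It had 0.69, 0.21 and 0.23 FPKM in 32E and 0 in 32S. In AC it had 31.33, 23.94 and 39.07, against 19.37, 14.97 and 15.88 in BC. AC was above BC in all libraries, with a log2 fold change of 0.85 that passed the limit for p but not that for size (SE 0.24, adjusted p = 0.00805). AT4G16460 (chr4:9284910-9286773, plus strand, 5 exons) encodes a CCCH zinc finger protein, a type that often binds RNA. It had 0.53, 0.62 and 0.13 FPKM in 32E and 0 in 32S. The AC libraries had 12.67, 16.43 and 16.77, against 11.99, 10.71 and 10.27 in BC, and it was not called (log2 fold change 0.43, SE 0.21, adjusted p = 0.0915).

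AT2G30820 (chr2:13129492-13132945, plus strand, 8 exons) is annotated as a subunit of a tRNA amidotransferase. It had 0.80, 0.21 and 0.60 FPKM in 32E and 0 in 32S. Its AC values were 13.98, 6.81 and 13.21, against 20.74, 18.75 and 18.50 in BC. BC was above AC in all libraries, but the gene was not called (log2 fold change -0.78, SE 0.27, adjusted p = 0.0249). It was the only one of the 16 genes that overlaps a gene on the other strand, AT2G30830, by 447 bases. The kit did not mark strand, so reads from the shared bases cannot be told apart. AT2G30830 had means of 0 in 32E and 32S, 0.38 in AC and 0.26 in BC. AT5G13600 (chr5:4380432-4382497, plus strand, 4 exons) belongs to the NPH3 family, whose founding member acts in the response to light direction. It had 0, 0.31 and 0 FPKM in 32E and 0 in 32S. AC had 14.39, 11.11 and 20.72, against 10.80, 9.32 and 10.07 in BC. Its BC mean of 10.1 was the lowest that the rule admitted, and it was not called (log2 fold change 0.53, SE 0.23, adjusted p = 0.0706).

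Genes just outside the limits looked much like those just inside. On the side of the lower limit, the last inside by the lower of the AC and BC means were AT5G13600 at 10.1, AT3G17980 at 10.8 and AT4G16460 at 10.99. The first outside were GH9B5, a gene for a cellulase-type enzyme, at 9.88, MEB1 at 9.49 and CYP710A1, a cytochrome P450 gene, at 9.43. On the side of the upper limit, the last inside by the higher of the 32E and 32S means were AT5G49900 at 0.98, GSTU9 at 0.90 and AT1G49330 at 0.80. The first outside were NDA1, a gene for a mitochondrial NADH dehydrogenase, at 1.11, and AT3G17225 and the DUF295 gene AT5G25290, both at 1.14. Of the egg cell genes, EC1.5 came nearest, with 3.02, 0.87 and 1.72 FPKM in 32E and 0.65, 0.20 and 0.44 in 32S, against 22.28, 31.19 and 21.50 in AC and 16.49, 14.40 and 20.17 in BC. EC1 proteins are known for activating sperm at fertilization. Its relatives EC1.2 and EC1.3 were at 0 in all 12 libraries, and EC1.1 had 0 at the 32-cell stage, and 1.12, 1.60 and 0 in AC, against 8.05, 7.23 and 8.98 in BC. EC1.4 went the other way, with 0.25, 0.93 and 1.79 in 32E and 0 in the 32S, AC and BC libraries. Of the 12 egg cell and zygote genes listed, 4 had means above 1 FPKM in 32E, 1 in 32S, 4 in AC and 4 in BC.

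The number of exons of the 16 genes ran between 1 and 21. No intron was annotated in 5 of the 16, against 7.62% of the other 8229 coding genes with means of at least 10 in AC and BC, 20.6% of 26712 coding genes in the files and 9 of the 49 genes of the opposite rule. The median number of exons was 2.5, against 6 for the others of that level, 4 for all and 3 for the opposite rule. Coding length did not stand out, with a median of 1048.5 bases against 1092 and 1065. The annotation gave no 5' untranslated region for 4 of the 16, against 2.25% of the others of that level and 14.7% of all, so for AT4G25930, FOA1, AT3G58320 and AT5G13600 the annotated start is the start codon. An overlap with a gene on the other strand was seen for 1 of 16, against 29.3% and 23.8%. Cysteine made up a median of 1.83% of the residues of the 16 proteins, against 1.42% and 1.68%. These are descriptions of a small set, and none of these differences was tested.

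By product name, 3 of the 16 were of unknown or DUF type, against 3.35% of the others of that level and 4.71% of all coding genes. These were the DUF295 genes AT4G25930 and AT5G52940, and AT4G36820, which counted only because its name is calcium uniporter (DUF607). There was 1 gene each of F-box, zinc finger, transcription factor and cell wall type, and AT3G58320 counted both as protease and as ubiquitin gene. None was a kinase, a transporter by the searched words or a cysteine-rich peptide. Families were named after the members were known. GSTU9 was the only one of 27 tau-class genes that was at least 10 in AC or BC and below 1 in 32E and 32S, although 4 of the 27 reached 10 in AC and BC. AT5G13600 was the only one of 33 NPH3 genes with at least 10 in AC and in BC. By the looser count, 6 of the 33 reached 10 in AC or BC and 9 in 32E or 32S.

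The genes were spread over the genome, with 1 on chromosome 1, 3 on chromosome 2, 3 on chromosome 3, 4 on chromosome 4 and 5 on chromosome 5. The closest pair, FOA1 and AT3G17980, was 235 kb apart. Of the 32 coding genes next to a member, 2 had a mean of at least 10 in AC or BC with less than 1 in 32E and in 32S, and these were the DUF295 neighbours. A mean of at least 10 in 32E or 32S was seen for 15 of the 32, or 46.9%, against 44.0% of all coding genes. GGPS1, beside AT4G36820, had means of 37.6 FPKM in 32E and 60.9 in 32S, against 35.0 in AC and 32.1 in BC. MYB96, beside GSTU9, had 127 in 32E and 68.0 in 32S, against 133 in AC and 1.497 in BC.

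The closest relative of each gene, by protein sequence among all coding genes of TAIR10.1, mostly had another pattern. A relative was found for 15 of the 16, with identities of 36.2% to 85.03% and a median of 55.5%, and none was itself one of the 16. Of these relatives, 5 had means below 1 in all 4 groups and 6 reached 10 in 32E or 32S. The relative of AT4G36820, AT2G23790, is a calcium uniporter gene with 67.9% identity and means of 41.0 FPKM in 32E and 51.8 in 32S, against 187 in AC and 345 in BC. AT2G23790 was more abundant than AT4G36820 in every group. The relative of AT2G30820 is JASON, a gene of spindle orientation in male meiosis, with 53.3% identity. JASON carries the same product name, amidotransferase subunit, so that name alone does not settle what AT2G30820 does. The means of JASON were 30.0 in 32E and 2.67 in 32S, against 64.9 in AC and 59.6 in BC. The relative of FOA1, the F-box gene AT3G16740, had 20.2 in 32E and 19.1 in 32S, against 17.3 in AC and 10.6 in BC. For AT3G17980 the relative was AT1G48590 with 85.03% identity, which was at 0 in the means of all 4 groups. For AT2G25450 it was AT2G30830 with 70.6% identity, the same low gene that lies opposite AT2G30820. For AT2G41445 it was AT2G41470, a MADS-box gene with 3.85 in 32E and 1.24 in 32S, against 12.9 in AC and 15.4 in BC. No coding sequence outside the set was more than 83.5% identical to a member over at least 50% of its length.

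**Figure D4:**
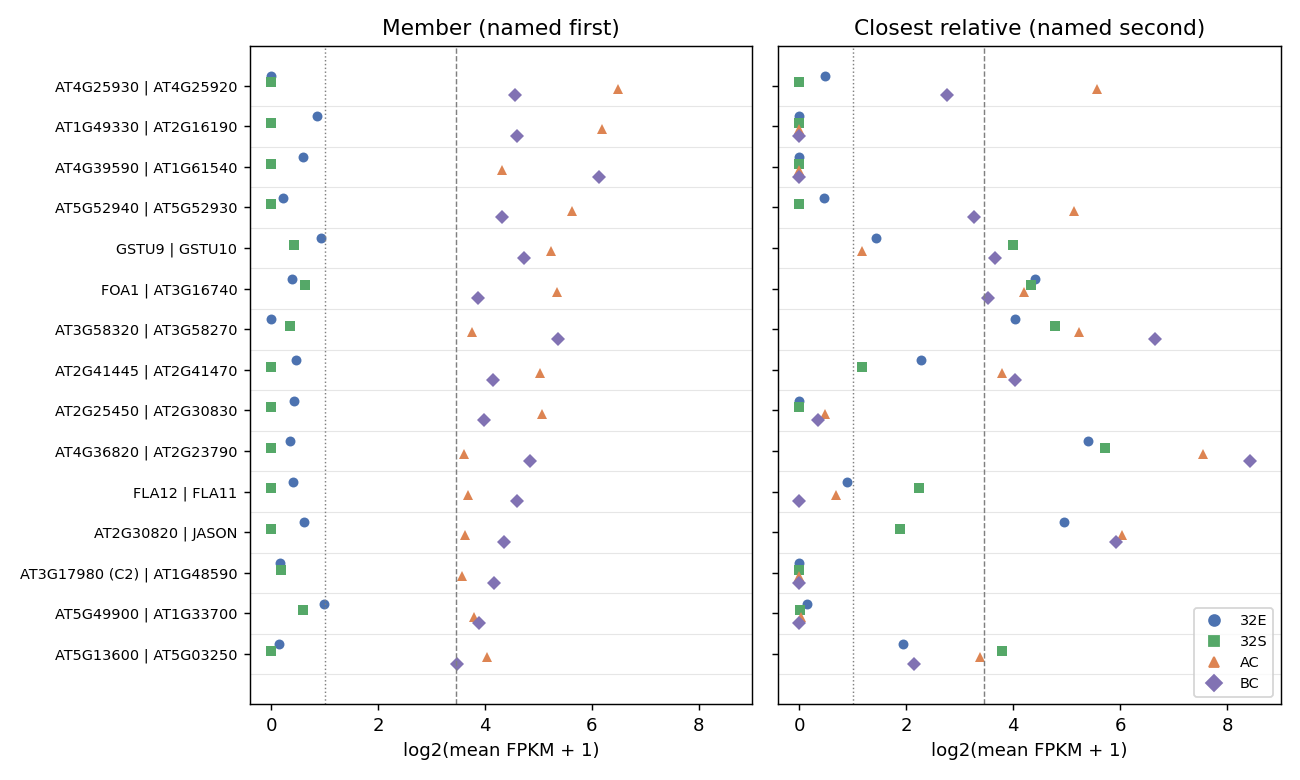
Mean FPKM in 32E, 32S, AC and BC of 15 of the genes (left) and of the closest relative of each by protein sequence (right), on log2(mean FPKM + 1) axes with lines at 1 and 10 FPKM. On the right, AT4G25920 and AT5G52930 are the relatives with at least 10 FPKM in AC or BC and less than 1 in 32E and in 32S, 5 relatives lie near 0 in all groups, and AT2G23790 reaches 345 FPKM in BC.

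Sequences upstream of the genes were read from TAIR10.1 to look for letters they share. The window ran from 250 bases before to 50 bases after the annotated start, and 10 motifs were searched on both strands. AAACCCTA, the telo-box of many genes of the translation machinery, was in the windows of 4 of the 16 genes, AT4G25930, AT4G39590, FOA1 and AT4G16460. It was in 6.22% of all 27444 windows and in 8.27% of those of the 8245 coding genes with means of at least 10 in AC and BC. TGGGCC, a motif that often stands beside it, was in 4 windows, and AT4G39590, FOA1 and AT4G16460 had both. It was in 15.5% of all windows and in 28.4% of those of the genes at that level. TATAAA was in 7 windows, against 52.1% of all, CCAAT in 8, against 51.6%, and CACGTG in 2, against 7.68%. TTGACC or TTGACT was in 3 windows, against 32.4%, and TGTCTC in 1, against 14.2%. CATGCATG, GCCGCC and TTTCCCGC were in none, against 0.878%, 2.57% and 0.798%. A match is a run of letters only, and no motif was in the windows of all 16 genes.

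The bases before the annotated start of 4 genes are shown 5' to 3' on the gene's strand, without bases that lie in another gene and with matches to the motifs in capitals. AT1G49330 and AT5G52940 were higher in AC, AT4G39590 was lower in AC, and AT4G16460 did not pass the test but holds both AAACCCTA and TGGGCC. The positions are chr1:18249616-18249865 (plus) for AT1G49330, chr5:21471862-21472102 (plus) for AT5G52940, chr4:18388760-18388889 (minus) for AT4G39590 and chr4:9284660-9284909 (plus) for AT4G16460.
AT1G49330: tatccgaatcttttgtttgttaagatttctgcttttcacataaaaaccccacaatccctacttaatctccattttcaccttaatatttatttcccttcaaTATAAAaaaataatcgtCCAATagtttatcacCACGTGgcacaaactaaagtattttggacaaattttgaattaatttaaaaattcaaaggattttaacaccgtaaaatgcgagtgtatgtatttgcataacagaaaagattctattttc
AT5G52940: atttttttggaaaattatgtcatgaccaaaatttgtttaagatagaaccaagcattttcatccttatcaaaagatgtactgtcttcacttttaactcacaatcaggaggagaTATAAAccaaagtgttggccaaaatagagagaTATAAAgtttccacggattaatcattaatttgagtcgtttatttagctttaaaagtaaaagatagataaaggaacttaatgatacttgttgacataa
AT4G39590: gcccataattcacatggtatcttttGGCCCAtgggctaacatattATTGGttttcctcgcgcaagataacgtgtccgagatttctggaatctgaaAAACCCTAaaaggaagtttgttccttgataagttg
AT4G16460: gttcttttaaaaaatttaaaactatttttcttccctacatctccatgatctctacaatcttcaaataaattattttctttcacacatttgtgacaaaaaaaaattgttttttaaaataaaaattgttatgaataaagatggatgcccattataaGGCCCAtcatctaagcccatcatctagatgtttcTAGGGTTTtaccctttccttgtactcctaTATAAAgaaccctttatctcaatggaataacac
In AT1G49330 the capitals mark TATAAA at 150 bases before the start, CCAAT at 133 and CACGTG at 118. In AT5G52940 they mark TATAAA at 129 bases and again at 97. In AT4G39590 they mark GGCCCA, which is TGGGCC read on the other strand, at 105 bases, ATTGG, which is CCAAT read on the other strand, at 85, and AAACCCTA at 35. In AT4G16460 they mark GGCCCA at 96, TAGGGTTT, which is AAACCCTA read on the other strand, at 62, and TATAAA at 33. The genes with AAACCCTA thus included AT4G25930 and FOA1, called higher in AC, AT4G39590, called lower in AC, and AT4G16460, not called.

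The 22 genes of mRNA decay, a list that covers decapping, deadenylation, exonucleases and nonsense-mediated decay, were looked at across the same stages because the level of an RNA also depends on its decay. In 32E against AC, 3 of the 22 were lower and none was higher, where 14.3% of all genes tested were lower and 13.1% higher. In 32S against BC, 5 were lower and 2 were higher, where 26.7% and 25.3% of all genes were. The median log2 fold change of the list was -0.37 in 32E against AC, where that of all genes tested was -0.0099. In 32S against BC it was -0.58, where that of all genes tested was 0. CAF1b, a gene for an enzyme that shortens the poly(A) tail, had 0.69, 0.41 and 0.35 FPKM in 32E, against 34.83, 42.96 and 32.17 in AC. In 32S it had 22.34, 41.80 and 27.76, against 0, 0 and 1.44 in BC. It was thus lower in 32E and higher in 32S than in the cell before. RH12, which encodes an RNA helicase of decapping granules, had 45.04, 28.28 and 42.81 in 32S, against 100.88, 94.26 and 93.19 in BC, and 104.36, 105.94 and 118.66 in 32E, against 88.41, 97.69 and 102.39 in AC. It was lower in 32S (log2 fold change -1.32, SE 0.15, adjusted p = 9.44e-06). At the 1-cell stage 5 of the 22 genes were higher in AC than in BC and none was lower, where 19.0% and 18.4% of all genes were. The part of this list in the levels of the 16 genes was not tested.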

How the data were processed

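The 12 libraries were grouped by the tissue and stage in their labels (32E, 32S, AC and BC, 3 each). mRNA was isolated on magnetic beads and amplified with a SMART-seq kit. The authors computed the deposited FPKM with RSEM against TAIR10. Their methods name Bowtie 2 for alignment and the submitters' notes name TopHat2 2.1.1. No scaling between libraries is named, and the files hold no counts, so no counting interval is given.

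The members and all gene lists were chosen with earlier results of these data known. The fit of log2(FPKM + 1) used limma 3.58.1 (R 4.3.3; trend in the prior variance) with all 12 libraries, for the 17060 genes whose FPKM passed 1 in 3 or more of them. The fold changes are on this scale, which understates those of low genes. The script was tested on simulated data. All members may be named, other genes by their place beside a limit, a neighbour, a relative or a list. A gene list of apical and basal markers, egg cell, synergid, endosperm, seed coat, pollen and sperm, handling and mRNA decay genes was used.

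Of the 32399 identifiers, 31912 matched TAIR10.1 (RefSeq), which gave positions, products and sequences. It was taken to share its nuclear chromosomes with TAIR10, as the files hold no coordinates. Relatives were searched with BLAST 2.17.0 (E value up to 1e-05), and a coding gene was represented by its longest coding sequence. Python 3.11.15, pandas 2.3.3, biopython 1.88 and matplotlib 3.10.9 were used.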

Additional observations from a re-analysis of the deposited data

How the results depend on the processing

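The number of genes that meet the rule depended on its limits. It was 41 with a lower limit of 5 FPKM and 3 with 20, 10 with an upper limit of 0.5 and 29 with 2, and 6 when every library had to meet the limit. It was 15 with medians (12 shared with the 16), 20 with TPM (14 shared), 13 with median-ratio scaling (all among the 16), and 14 to 19 when a library was left out. The members called between AC and BC numbered 2 with a pseudocount of 0.1, where AT4G39590, AT5G52940, FOA1 and AT3G58320 lost their calls, and 5 to 7 under the other settings that keep all libraries. They numbered 5 to 10 with a library left out, with 10 without AC replicate 2, where AT2G41445, AT2G25450, AT4G36820 and FLA12 were added. AT5G52940 lost its call in a model of AC and BC only (adjusted p = 0.0436). AT2G25450 was called with a filter at FPKM 5, with median-ratio scaling and without 32E replicate 2. The log2 fold change of AT5G49900 was 0.015 without AC replicate 3 and -0.53 without AC replicate 2, the ends of its range with a library left out, against -0.18 with all. Of all genes tested, 4495 (pseudocount of 5) to 6436 (TPM) were called with all libraries and 5553 to 6516 with a library left out, against 6368. The causes of these shifts were not tested.

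The labels number the replicates 1 to 3 in every group without saying that a number is shared. Over the genes tested, deviations from the group means correlated between -0.125 and 0.066 for 18 pairs of libraries with the same number and between -0.125 and 0.138 for 36 pairs with different numbers, so the number was not taken as a pairing. With the replicate number as a block, 6265 genes and 6 members were called, the same 6 members as without it.

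Values in the files are rounded to 2 decimals and no counts are given. Levels near the limit of 1 FPKM, and the difference between a value of 0 and a low value, are therefore the least certain of those given here.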
